A study of Mus musculus with 9 samples.

Results

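The sodium pump (Na,K-ATPase) genes described here are 8 of the 55385 genes in the count table: the 3 beta subunits Atp1b1, Atp1b2 and Atp1b3 and the 5 FXYD regulators Fxyd1, Fxyd2, Fxyd3, Fxyd4 and Fxyd5. They were taken by gene symbol and not by a rule on their values, but the set was chosen with earlier results of these data known. Other FXYD genes and relatives of the pump are given as context from a separate list. The pump moves sodium out of the cell and potassium in at the cost of ATP, and in the kidney tubule it sits in the basolateral membrane and drives the uptake of sodium from the urine. A catalytic alpha subunit needs a glycosylated beta subunit to fold and reach the membrane. Small FXYD proteins, each with a single membrane span, bind the pair and adjust its affinity for sodium and potassium, and different tubule segments use different FXYD proteins.

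All mice were male, 9 to 12 weeks old and 25 to 30 g in weight, carried a red fluorescent tdTomato reporter at the Rosa26 locus and received tamoxifen. Uninjured proximal tubule cells came from Slc34a1IRES-CreERT2/+:R26RtdT/+ mice, in which the tamoxifen-activated recombinase CreERT2 is expressed from the gene of a proximal tubule phosphate transporter. The other groups came from Sox9IRES-CreERT2/+:R26RtdT/+ mice, in which it is expressed from Sox9, a transcription factor that tubule cells switch on after injury, and both had bilateral ischemia-reperfusion injury. Tamoxifen given at the time of injury marked cells that were collected at 48 h (the 48 h group), and tamoxifen on days 10 and 12 marked cells that still expressed Sox9 by day 14 (the d14 group). Whole tdTomato-positive populations of cortex and outer medulla were sorted, so any Sox9-expressing cell could be included and not only proximal tubule. The allele that labels the cells, the injury and the tamoxifen schedule differ together between the uninjured and the Sox9 groups, so their parts cannot be told apart. Each group had 3 libraries, which the labels call biological replicates.

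Library totals ran from 8036054 to 51631204 counts. Mitochondrial transcripts took 25.1 to 29.2% of the counts in uninjured libraries, 32.7 to 39.2% at 48 h and 15.2 to 25.2% at d14. The part of this difference in the member changes was not tested. Levels are CPM, counts per 1000000 counts of a library, after TMM scaling, which corrects library size for differences in composition, and changes are log2 fold changes ± SE from a quasi-likelihood model (edgeR) of all 9 libraries. A gene was called higher or lower at a Benjamini-Hochberg adjusted p under 0.05. Of the members 7 of 8 had enough counts to be tested, and Fxyd1 did not. The summed level of 15 proximal tubule markers was 35553 to 43380 CPM in the uninjured libraries, 8261 to 20815 CPM at 48 h and 4584 to 8046 CPM at d14. Markers of injured proximal tubule (10 genes) summed to 334 to 539, 10761 to 24048 and 11551 to 15505 CPM in that order. Against uninjured cells 9 of these 10 were higher at 48 h and all 10 at d14, beside 17.4% and 25.1% of all genes tested. Thick ascending limb markers (9 genes) summed to 392 to 494, 874 to 1124 and 3170 to 5798 CPM in the same order, and intercalated cell markers (9 genes) to 28.1 to 40.7, 124 to 156 and 378 to 448 CPM. The sorted groups thus carried different mixtures of segment transcripts. In such bulk samples fewer cells of a type and less RNA per cell cannot be told apart.

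The FXYD proteins are named for a stretch of phenylalanine, any residue, tyrosine and aspartate just outside the membrane span. The coding bases around it are shown for the 3 members whose levels are followed below and for Fxyd6, a related gene with one of the larger increases, to show what the family shares and where the genes that were counted separately differ in sequence. Each line is 57 bases of the coding strand of the GENCODE M21 transcript (GRCm38), with the 4 codons of the motif in capitals.
Fxyd2: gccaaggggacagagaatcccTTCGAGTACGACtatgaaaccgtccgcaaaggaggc
Fxyd4: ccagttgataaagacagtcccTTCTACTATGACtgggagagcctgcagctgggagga
Fxyd5: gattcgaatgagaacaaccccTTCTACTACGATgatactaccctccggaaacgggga
Fxyd6: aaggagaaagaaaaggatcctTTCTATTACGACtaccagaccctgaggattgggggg

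The stretch of Fxyd2 lies within chr9:45408114-45408325 on the plus strand and that of Fxyd4 within chr6:117934475-117935161 on the minus strand. That of Fxyd5 lies within chr7:31035258-31036436, minus strand, and that of Fxyd6 within chr9:45390642-45390802, plus strand. Introns interrupt all 4. Between any pair of these 4 genes, 29 to 34 of the 57 bases were identical. The motif occupies codons 17 to 20 of 63 in Fxyd2 and 30 to 33 of 87 in Fxyd4. In Fxyd5 it begins only at codon 136 of 178, which reflects the long extracellular part that sets this protein (dysadherin) apart from its relatives.

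The genes are scattered over 5 chromosomes, and several have close neighbours. Atp1b1 (ENSMUSG00000026576.12) is at chr1:164437109-164458355, Atp1b2 (ENSMUSG00000041329.13) at chr11:69599736-69605942 and Atp1b3 (ENSMUSG00000032412.8) at chr9:96332655-96364442, all on the minus strand. Fxyd5, Fxyd7, Fxyd1 and Fxyd3 follow each other on the minus strand within 44.0 kb of chr7:31032722-31076704. Fxyd6 and Fxyd2 follow each other on the plus strand of chr9, 3509 bases apart. Fxyd4 (ENSMUSG00000004988.9) stands alone at chr6:117933559-117937692. The annotated 3' end of Atp1b1 overlaps Nme7 and Fxyd3 overlaps Lgi4, each on the opposite strand. The libraries were strand-specific, but no source used here says whether the counting took account of the strand.

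**Figure D1:**
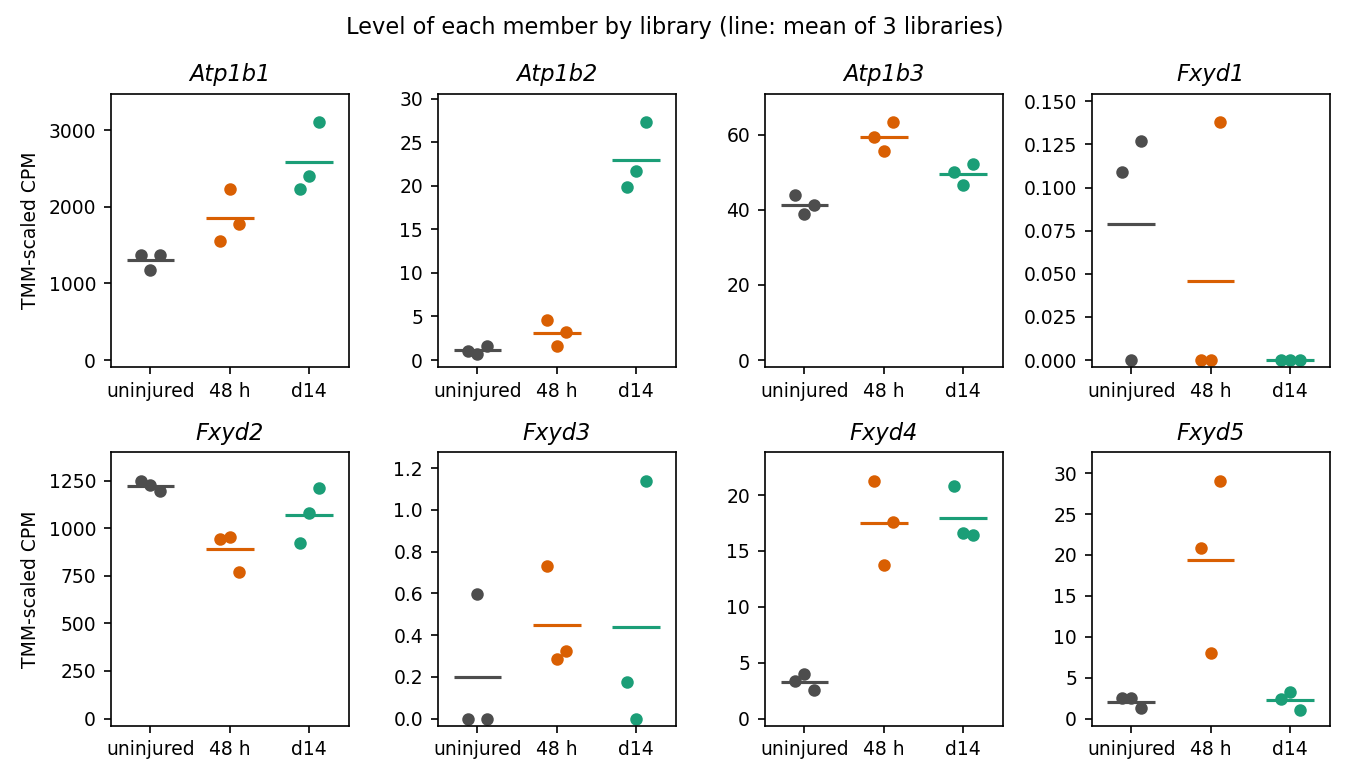
Level of the 8 members in each of the 9 libraries (TMM-scaled CPM, a linear axis per gene that starts near 0; points are libraries, lines are means of 3). Atp1b1 and Atp1b2 were highest at d14, Atp1b3 and Fxyd5 at 48 h, and Fxyd4 was raised in both Sox9 groups, while Fxyd1 and Fxyd3 stayed near 0.

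Among the 7 tested members, 4 were higher (Atp1b2, Atp1b3, Fxyd4 and Fxyd5) and 1 was lower (Fxyd2) at 48 h than in uninjured cells. Over all genes tested, 17.4% were higher and 11.7% lower in that comparison. At d14 against uninjured, 3 members were higher (Atp1b1, Atp1b2 and Fxyd4) and none was lower, beside 25.1% higher and 20.7% lower of all genes. At d14 against 48 h, 1 member was higher (Atp1b2) and 1 lower (Fxyd5), beside 16.8% higher and 16.3% lower. The last comparison tests whether the 48 h and d14 changes, which share the uninjured libraries, differ from each other.

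**Figure D2:**
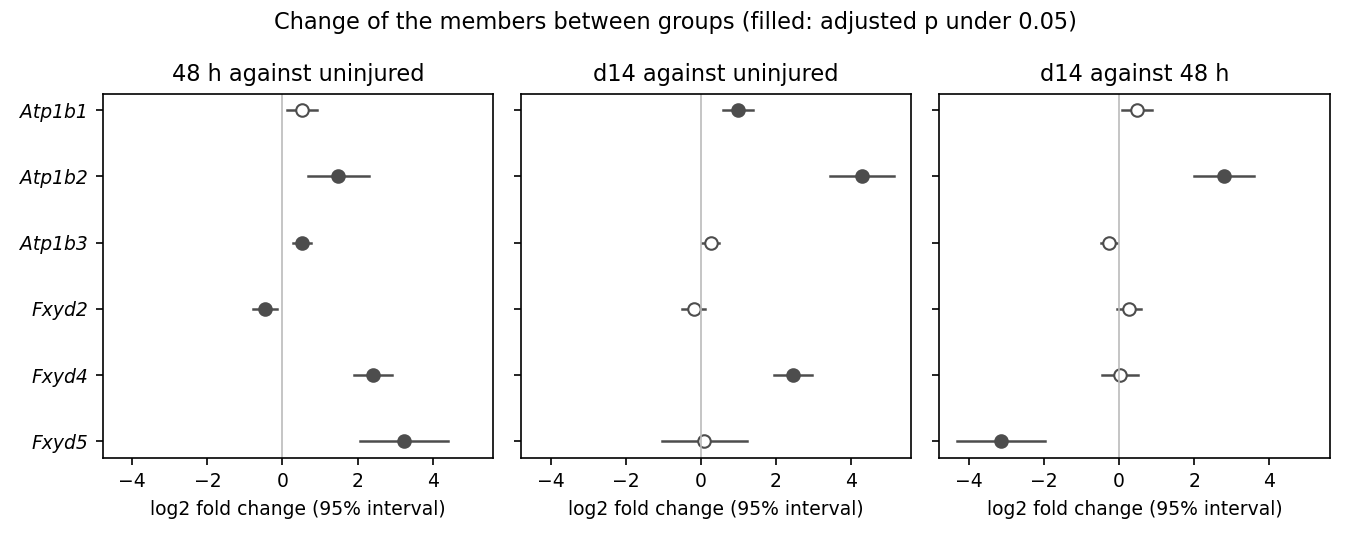
Log2 fold change of 6 members in the 3 comparisons, with the 95% interval of the model (lines) and filled points where the adjusted p was under 0.05. The interval of Atp1b2 lies above 0 in all 3 comparisons and that of Fxyd5 lies above 0 at 48 h and below 0 at d14 against 48 h. Fxyd3 is left out of the plot because its intervals span over 7 log2 units, and Fxyd1 was not tested.

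Beta subunits were led by Atp1b1, the usual beta subunit of kidney epithelium. It was at 1366, 1172 and 1366 CPM in the uninjured libraries, at 1549, 2240 and 1773 CPM at 48 h and at 2230, 2405 and 3108 CPM at d14. The uninjured libraries were below all others, and only 1 of the 48 h libraries reached the lowest d14 library. The rise from uninjured to d14 was 0.99 ± 0.18 on the log2 scale (1.98-fold, adjusted p = 0.00108 by edgeR). The difference of 0.51 ± 0.18 between 48 h and uninjured (95% interval 0.11 to 0.91) missed the threshold at adjusted p = 0.0569, as did that of 0.48 ± 0.18 between d14 and 48 h (0.08 to 0.88, adjusted p = 0.0660). Both passed with DESeq2 (adjusted p = 0.0135 and 0.0337) and with limma voom (0.0279 and 0.0349). They also passed when a single library was left out: 48 h replicate 1 for the first (adjusted p = 0.0288) and 48 h replicate 2 for the second (0.0281).

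Atp1b2, first described as an adhesion molecule on glia, showed the widest range of the beta subunits. Its 3 uninjured libraries held 1.09, 0.737 and 1.65 CPM, those of 48 h 4.60, 1.58 and 3.27 CPM and those of d14 19.9, 21.7 and 27.3 CPM. All 3 libraries of d14 stood far above the other 6, whereas the lowest 48 h library lay just below the highest uninjured one. The rise was 1.49 ± 0.37 at 48 h (adjusted p = 0.0124) and 4.29 ± 0.38 at d14 (19.6-fold, adjusted p = 5.27e-06). From 48 h to d14 it was a further 2.80 ± 0.36 (6.98-fold, adjusted p = 2.65e-04). The call at 48 h was lost when only the libraries of those groups were fitted (1.46 ± 0.56, adjusted p = 0.0922), and without 48 h replicate 1 the rise was 1.15 ± 0.38 (0.0436).

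The sum of 8 markers of the distal convoluted and connecting tubule moved in the same order as Atp1b2. Mean sums of thick ascending limb, principal cell (collecting duct) and intercalated cell markers rose in that order too, so this course was not particular to the segment. The distal convoluted and connecting tubule sum was 161 to 211 CPM in uninjured cells, 348 to 572 CPM at 48 h and 2467 to 4177 CPM at d14. The thiazide-sensitive cotransporter Slc12a3 was its largest part at 48 h and d14 (57.5 ± 25.4, 259 ± 84.4 and 2770 ± 885 CPM in the same order, SD, n = 3). Single markers did not all share the 48 h rise. At 48 h 4 of the 8 were higher and none lower, and at d14 all 8 were higher. Calb1 (20.3 and 18.7 CPM), Klhl3 (19.5 and 18.6 CPM) and Pvalb (0.920 and 0.128 CPM) had lower means at 48 h than in uninjured cells. The ratio of Atp1b2 to Slc12a3 ran from 0.00849 to 0.0380 before injury, from 0.00453 to 0.0253 at 48 h and from 0.00650 to 0.0113 at d14, so the groups overlapped, and before d14 it rests on 11 to 82 Atp1b2 counts a library. Across 48 h replicates 1, 2 and 3 the distal convoluted sum (348, 572 and 421 CPM) and the principal cell sum (614, 1070 and 743 CPM) had the reverse order of Atp1b2. The thick ascending limb sum (1124, 874 and 1019 CPM) had the order of Atp1b2, and the intercalated cell sum (124, 147 and 156 CPM) had neither. Replicate 1 at 48 h, with the highest Atp1b2 of its group, also stood apart in endothelial markers (10 genes, 835 CPM against 32.2 to 167 CPM in the other libraries). Glial and nerve markers (6 genes) summed to 4.43 to 4.91, 17.2 to 26.0 and 44.7 to 72.1 CPM, mostly from Mbp and Ncam1, and the defining Schwann cell genes S100b and Sox10 were at 0 counts in all 9 libraries. The part of segment composition in the Atp1b2 result was not tested.

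Atp1b3, a widely expressed beta subunit that is also found outside epithelia, changed least among them and was called higher at 48 h. It was at 44.0, 39.0 and 41.3 CPM in uninjured cells, at 59.3, 55.6 and 63.4 CPM at 48 h and at 50.0, 46.5 and 52.2 CPM at d14. The 3 groups did not overlap. The rise at 48 h was 0.52 ± 0.10 (1.44-fold, adjusted p = 0.00364). The d14 group stood between the others: its difference was 0.26 ± 0.10 from uninjured (95% interval 0.03 to 0.49, adjusted p = 0.0624) and -0.26 ± 0.10 from 48 h (-0.49 to -0.04, adjusted p = 0.0737), and neither passed. Both passed with DESeq2 (adjusted p = 0.0472 and 0.0263). The first also passed with limma voom (0.0399) and without 48 h replicate 2 (0.0484). With RLE size factors neither did (0.0693 and 0.0514), and without TMM the second turned sign (0.31 ± 0.14, adjusted p = 0.0836).

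Between genes, levels can be compared only per kb of transcript. Divided by the length of the union of annotated exons, Atp1b1 was at 422 ± 36.4, 602 ± 114 and 838 ± 151 CPM per kb (SD, n = 3) in uninjured, 48 h and d14 cells. Atp1b3 was at 17.3 ± 1.03, 24.9 ± 1.63 and 20.7 ± 1.21, and Atp1b2 at 0.283 ± 0.113, 0.771 ± 0.370 and 5.62 ± 0.948 CPM per kb. Atp1b1 thus made up 96.0 ± 0.162%, 95.8 ± 0.925% and 96.9 ± 0.345% of the beta subunit sum. The share of Atp1b3 was 3.95 ± 0.183%, 4.07 ± 0.849% and 2.44 ± 0.343%. Even at d14, after its 19.6-fold rise, Atp1b2 held 0.651 ± 0.00779% of the sum, against 0.0635 ± 0.0217% in uninjured cells. The beta pool therefore remained almost wholly Atp1b1 transcript in every library (95.1 to 97.2%).

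Of the FXYD regulators, Fxyd2 was the abundant one. It encodes the gamma subunit of the renal pump, which lowers its affinity for sodium, and variants of the human gene cause renal magnesium loss. Fxyd2 was at 1251, 1229 and 1195 CPM in uninjured cells, at 944, 952 and 772 CPM at 48 h and at 924, 1078 and 1212 CPM at d14. All 48 h libraries were below all uninjured ones, and the d14 libraries overlapped with both groups. It fell by 0.46 ± 0.14 on the log2 scale at 48 h (adjusted p = 0.0317), a call that was lost when any 1 uninjured library or 48 h replicate 3 was left out (adjusted p = 0.0714 to 0.105). At d14 the difference from uninjured was -0.19 ± 0.14 (95% interval -0.51 to 0.12, adjusted p = 0.298), and from 48 h it was 0.27 ± 0.14 (-0.04 to 0.58, adjusted p = 0.172).

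The sign at d14 rests on the scaling. Over all genes, d14 against uninjured had a median log2 fold change of 0.06 with TMM and 0.63 without it, a shift of 0.57. The split of calls moved from 3898 higher and 3214 lower to 7315 higher and 1417 lower. Without TMM Fxyd2 then came out higher by 0.36 ± 0.14 (adjusted p = 0.0390), still below that median. The same scaling put Atp1b3 at 0.83 ± 0.14 against uninjured (adjusted p = 2.91e-04). Fxyd2 then stood 0.83 ± 0.14 above its 48 h level (adjusted p = 3.71e-04).

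Fxyd2 did not follow the rise of the main beta subunit. Its ratio to Atp1b1, per kb of exon union, was 0.704, 0.807 and 0.673 in uninjured cells, 0.469, 0.327 and 0.335 at 48 h and 0.319, 0.345 and 0.300 at d14. Every uninjured library was above every Sox9 library. By the length of the longest transcript in place of the exon union the Fxyd2 to Atp1b1 ratio was 1.44 ± 0.138, 0.746 ± 0.158 and 0.636 ± 0.0444. Which of them is the more abundant in uninjured cells thus depends on the length used. The length of a gene is the same in every library, so the choice of length cannot alter the fall of the ratio and is no check on it. Among the beta subunits, Atp1b1 over Atp1b3 was 24.1, 23.3 and 25.6 before injury, 20.3, 31.2 and 21.7 at 48 h and 34.6, 40.1 and 46.2 at d14, so every d14 library was above all others. Fxyd2 over Fxyd4 was 184, 150 and 228 before injury, 21.7, 34.1 and 21.4 at 48 h and 21.7, 31.7 and 36.1 at d14, with both Sox9 groups far below the uninjured one. These ratios combine members and were not tested.

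**Figure D3:**
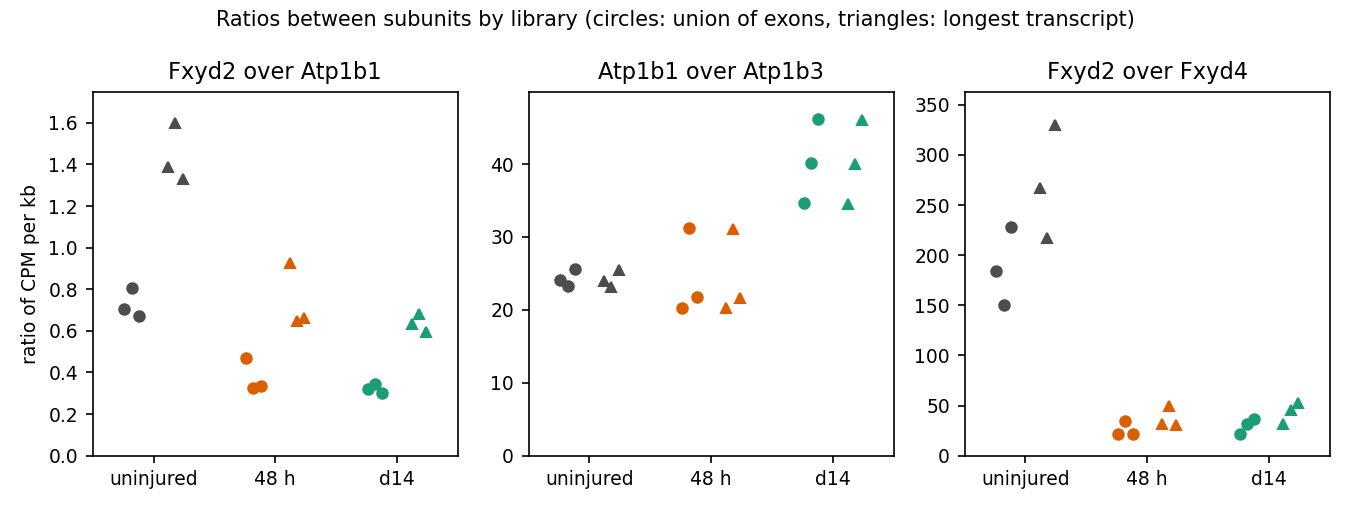
Ratio of CPM per kb between pump subunits in each library, with lengths from the union of exons (circles) or the longest transcript (triangles). The ratio of Fxyd2 to Atp1b1 and of Fxyd2 to Fxyd4 is highest in the 3 uninjured libraries. That of Atp1b1 to Atp1b3 is highest in the 3 libraries of d14 (34.6 to 46.2 with the exon union). A change of length rescales all libraries alike and so cannot alter their order.

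Fxyd4, also called corticosteroid hormone-induced factor, is a collecting duct regulator that raises the affinity of the pump for sodium. It was at 3.32, 4.0 and 2.56 CPM before injury, at 21.3, 13.7 and 17.6 CPM at 48 h and at 20.8, 16.6 and 16.4 CPM at d14. The uninjured libraries were all below the others, and the 48 h and d14 libraries overlapped throughout. Fxyd4 rose by 2.42 ± 0.23 at 48 h (5.36-fold, adjusted p = 3.14e-05) and by 2.45 ± 0.23 at d14 (5.46-fold, adjusted p = 7.51e-06). Between d14 and 48 h the difference was 0.03 ± 0.22 (95% interval -0.45 to 0.50, adjusted p = 0.936), and its sign was negative in 5 of the alternative fits.

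Principal cell markers, from the collecting duct cells in which Fxyd4 is usually found, were also raised in both Sox9 groups. Of these 10 genes, 9 were higher and none lower at 48 h, and likewise at d14. The exception at both times was the water channel Aqp3 (48.5, 52.1 and 38.5 CPM in uninjured, 48 h and d14 cells). The sum of the 10 was 194 to 238 CPM in uninjured cells, 614 to 1070 CPM at 48 h and 1028 to 1402 CPM at d14. Its largest part in each group was the transcription factor Tfcp2l1 (141, 456 and 598 CPM). None of the 10 was at 0 counts throughout. At d14 against 48 h, 6 of the 10 were higher and none lower, beside 16.8% higher of all genes tested. Their median log2 fold change there was 1.37, whereas Fxyd4 differed by 0.03. Across 48 h replicates 1, 2 and 3 the sum of the 10 (614, 1070 and 743 CPM) had the reverse order of Fxyd4 (21.3, 13.7 and 17.6 CPM). The vasopressin-regulated water channel Aqp2, named here after its values were seen, stepped up like Fxyd4, from 4.65 ± 1.03 to 107 ± 7.89 and 93.7 ± 19.7 CPM (SD, n = 3), whereas the principal cell sodium channel subunit Scnn1b continued upward from 36.3 ± 3.49 at 48 h to 111 ± 23.7 CPM at d14. Fxyd4 per Aqp2 was 0.439 to 1.02 before injury, and lower in both Sox9 groups, at 0.137 to 0.198 and 0.142 to 0.237. The part of collecting duct cells in the Fxyd4 result was not tested.

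Fxyd5, or dysadherin, is a regulator that also weakens cell adhesion and is found in epithelia under stress and in blood cells. It was higher at 48 h than in either of the other groups. The uninjured libraries held 2.48, 2.46 and 1.27 CPM, the 48 h libraries 20.9, 8.05 and 29.1 CPM and the d14 libraries 2.43, 3.21 and 1.06 CPM. The 48 h libraries were all above the other 6 but differed among themselves by over 3-fold. The rise at 48 h was 3.24 ± 0.53 (9.46-fold, adjusted p = 0.00134), and the fall from 48 h to d14 was -3.14 ± 0.53 (adjusted p = 0.00161). Between d14 and uninjured the difference was 0.10 ± 0.51, with a 95% interval from -1.04 to 1.24 (adjusted p = 0.897).

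Leukocyte transcripts followed a similar course. Neutrophil markers (7 genes, of which 5 were tested and all 5 were higher at 48 h) summed to 2.80 to 8.0 CPM in uninjured cells, 113 to 343 CPM at 48 h and 3.43 to 5.90 CPM at d14. Macrophage and monocyte markers (11 genes, 6 higher at 48 h and 5 at d14) summed to 32.4 to 39.7, 124 to 409 and 51.5 to 129 CPM. In the order of replicates 1, 2 and 3 at 48 h, Fxyd5 was at 20.9, 8.05 and 29.1 CPM, the macrophage sum at 198, 124 and 409 CPM and the neutrophil sum at 113, 211 and 343 CPM. Against single leukocyte genes, chosen after their values were seen, the course of Fxyd5 depended on the gene. Fxyd5 per Ptprc was 0.253 to 0.470 before injury, 0.514 to 0.838 at 48 h and 0.167 to 0.314 at d14, so that every 48 h library was above the rest. Fxyd5 per Csf3r was 0.538 to 3.68, 0.549 to 0.705 and 0.975 to 2.30 in the same order of groups. Fxyd5 per Itgb2 was 0.515 to 0.770, 0.50 to 0.766 and 0.372 to 0.663, and Itgb2 is among the genes nearest to Fxyd5 by correlation, which by itself makes for a steady ratio. Lymphocyte markers (8 genes) summed to at most 3.29 CPM in any library. The part of leukocyte RNA in the Fxyd5 result was not tested.

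**Figure D4:**
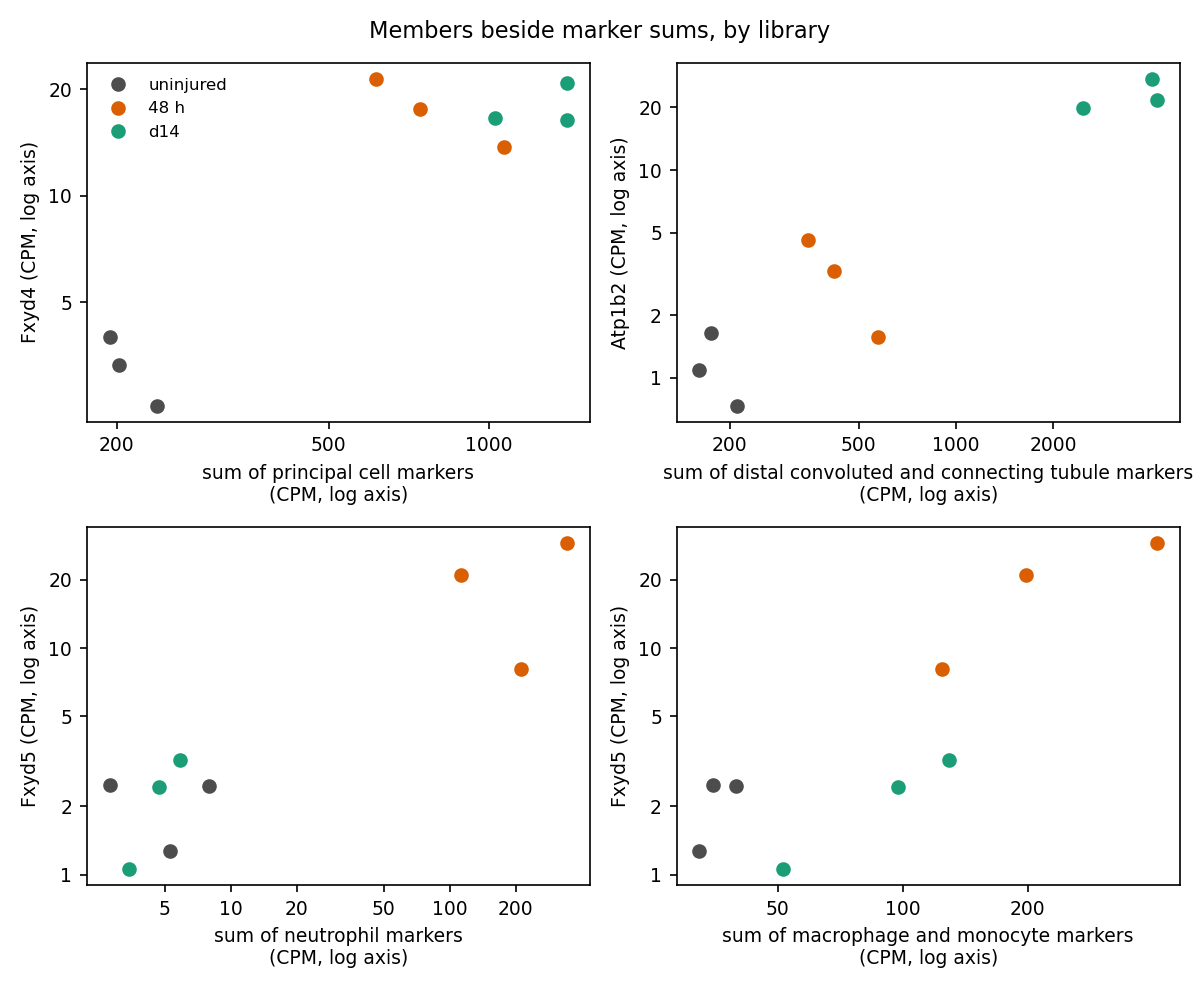
Fxyd4, Atp1b2 and Fxyd5 in each library (vertical, CPM) against the summed CPM of marker lists (horizontal), both on log axes; points are libraries, coloured by group. Fxyd5 is high only in the 3 libraries of 48 h, which also hold the 3 highest neutrophil sums (113 to 343 CPM). Within those 3 libraries its order matches the macrophage sum and not the neutrophil sum, but this depends on the genes in each list. Across replicates 1, 2 and 3 the neutrophil gene Csf3r (31.8, 14.7 and 41.3 CPM) had the order of Fxyd5. Itgam of the macrophage list (23.7, 29.8 and 56.7 CPM) did not.

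Fxyd1 and Fxyd3 were at the limit of detection. Fxyd1, phospholemman, the regulator of heart and skeletal muscle, had 10 counts in all over the uninjured libraries, 3 at 48 h and 0 at d14. These correspond to 0.0878 CPM (95% Poisson interval 0.0421 to 0.161), 0.0645 CPM (0.0133 to 0.189) and 0 CPM with an upper limit of 0.0408 CPM. The d14 limit lies just below the lower end of the uninjured interval, but the counts came from 2 of the 3 uninjured libraries, and Fxyd1 was too sparse to be tested between groups. Fxyd3, an epithelial regulator of stomach and colon, had 0, 17 and 0 counts before injury, 13, 2 and 7 at 48 h and 5, 0 and 42 at d14. It passed the filter through single libraries and was called in no comparison (adjusted p = 0.631, 0.585 and 0.992). The 42 counts in d14 replicate 3 set its value there: without that library the difference from uninjured was -1.04 ± 2.07 in place of 1.23 ± 1.67. Without uninjured replicate 2, which held all 17 counts of its group, it was 6.61 (adjusted p = 0.0567). The Poisson intervals and limit of Fxyd1 cover counting error only, whereas the SEs of Fxyd3 come from the model and include the spread between libraries.

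Per kb of exon union, the FXYD sum was 99.3 ± 0.167% Fxyd2 in uninjured cells (SD, n = 3), 94.1 ± 2.07% at 48 h and 96.4 ± 0.937% at d14. Fxyd4 held 0.546 ± 0.112%, 3.82 ± 0.857% and 3.38 ± 0.902% of it, and Fxyd5 held 0.159 ± 0.0506%, 2.03 ± 1.27% and 0.199 ± 0.103%. By the longest transcript the shares of Fxyd4 were smaller, at 0.378%, 2.69% and 2.36%, with the same order of groups. Ordered by level per kb, Atp1b1 and Fxyd2 led in every group, followed by Atp1b3 and Fxyd4. In uninjured cells the next neighbours Fxyd5 (0.493 ± 0.165) and Atp1b2 (0.283 ± 0.113 CPM per kb) overlapped between libraries, as did Fxyd3 and Fxyd1. At d14 Atp1b2 (5.62 ± 0.948) stood above Fxyd5 (0.533 ± 0.259) in every library, and at 48 h their order was the reverse (0.771 ± 0.370 against 4.62 ± 2.53).

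Neighbouring FXYD genes did not all share a level. In the row of 4 genes on chromosome 7, Fxyd1 and Fxyd3 reached at most 1.14 CPM in any library, Fxyd7 had no counts at all, and Fxyd5 rose 9.46-fold at 48 h. Fxyd3 was not called, with an interval of -2.53 to 5.06 that includes a rise as large as that of Fxyd5. On chromosome 9, Fxyd6 rose at 48 h while Fxyd2, directly downstream, fell, a call that was lost in 4 of the 9 fits without 1 library.

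Of 6 further pump and FXYD genes, 3 could be tested: 2 of them were higher at 48 h and all 3 at d14 against uninjured, and all 3 were higher at d14 than at 48 h. Atp1b4, Atp4b and Fxyd7 had no counts in any library. Fxyd6, a regulator best known from brain, was at 0.130, 0 and 0.0508 CPM before injury, at 2.02, 1.29 and 0.599 CPM at 48 h and at 8.63, 8.31 and 12.9 CPM at d14. The groups did not overlap, and Fxyd6 rose in all 3 comparisons (4.18 ± 0.72, 7.12 ± 0.73 and 2.94 ± 0.58, adjusted p = 0.00154, 1.53e-05 and 0.00325). The size against uninjured rests on few counts: without uninjured replicate 1 it was 5.27 at 48 h and 8.21 at d14, and without 48 h replicate 1 it was 3.59 at 48 h and 3.52 at d14 against 48 h. The proton pump relatives also rose late. Atp4a, the gastric H,K-ATPase alpha subunit, went from 3.67 ± 0.235 to 125 ± 45.8 CPM at d14 (5.08 ± 0.42, adjusted p = 1.34e-05), and at 48 h it was at 7.0 ± 4.06 CPM without passing the test (adjusted p = 0.101, and 0.0313 with DESeq2). Without 48 h replicate 1, which held 11.7 CPM, that 48 h difference fell to 0.37 and the one at d14 against 48 h was 4.71. Atp12a, the colonic H,K-ATPase, had no count in the 3 uninjured libraries, 58 counts at 48 h and 548 at d14. It was at least 47.4-fold and at least 230-fold higher, set against 3 counts over the uninjured group. Its rise from 48 h to d14 (2.22 ± 0.56, adjusted p = 0.0156) was lost without d14 replicate 2 (0.0773) or 3 (0.0557).

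The carriers that load the cell with sodium, and so set the work of the pump, went in opposite directions along the nephron. Of 10 sodium carriers of the proximal tubule, apical except for the basolateral Slc13a3, none was higher and 6 were lower at 48 h, and 8 were lower at d14. Their median log2 fold changes were -1.01 and -2.07, beside 0.02 and 0.06 for all genes. Slc6a19, the neutral amino acid carrier, fell from 730 to 211 and 66.1 CPM (adjusted p = 1.38e-04 and 5.64e-07), and the lactate carrier Slc5a12 from 462 to 276 and 100 CPM (0.0304 and 2.22e-05). The basolateral dicarboxylate carrier Slc13a3 was at 770 CPM, did not pass at 48 h with 861 CPM (adjusted p = 0.468), and fell to 129 CPM at d14 (4.08e-07). Of 6 apical sodium carriers and channel subunits of the distal nephron, 5 were higher and none lower at both times, with medians of 2.39 and 4.43. Scnn1a, the alpha subunit of the epithelial sodium channel, rose from 9.08 to 63.4 and 270 CPM (9.97e-07 and 1.69e-08). The exception was the sodium-proton exchanger Slc9a2 (log2 fold change -0.12 and -0.23, adjusted p = 0.406 and 0.0807). The uninjured cells were chosen through a proximal tubule gene, so the 2 lists also separate the labelled segments.

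**Figure D5:**
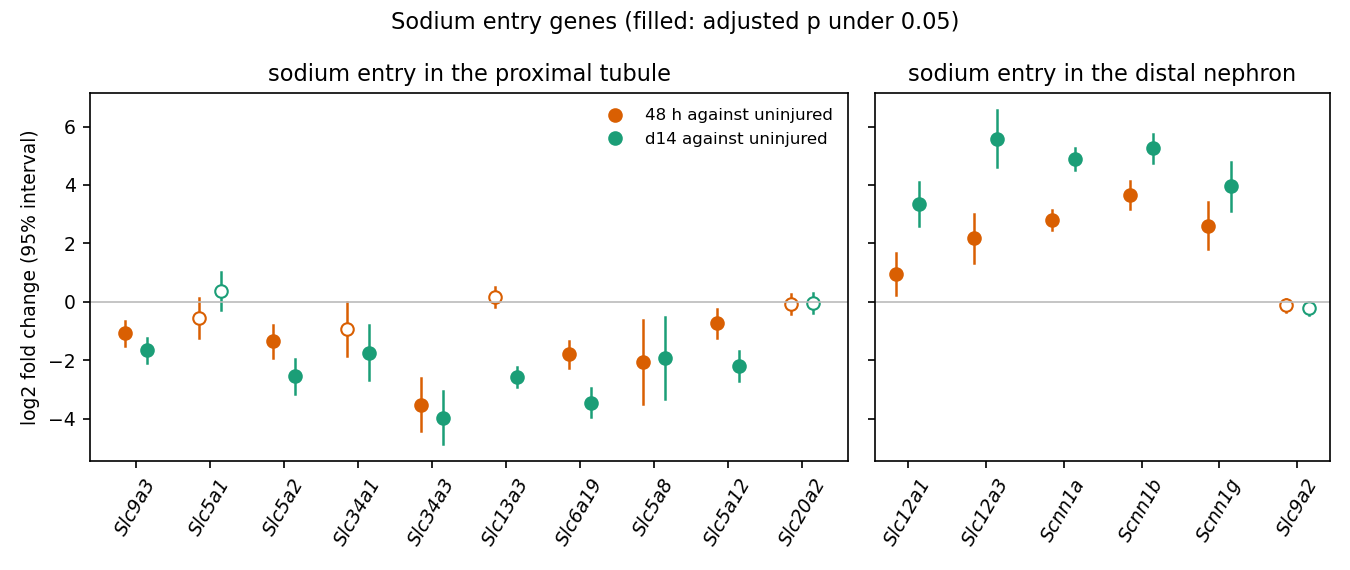
Log2 fold change of 10 proximal and 6 distal sodium entry genes at 48 h and at d14 against uninjured, with 95% intervals (lines) and filled points for adjusted p under 0.05. The distal genes except Slc9a2 lie above 0 at both times, and the proximal genes that passed the test all lie below 0.

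Of the 10 genes for basolateral potassium recycling and sodium bicarbonate exit, 6 were higher at each time, while 1 was lower at 48 h and 3 at d14 (medians 1.91 and 4.26). The potassium channels Kcnj10, which returns potassium across the basolateral membrane of the distal tubule, and Kcnj1, which secretes it across the apical side, rose from 5.39 to 218 and from 10.2 to 423 CPM by d14 (adjusted p = 1.93e-08 and 1.01e-08). The two-pore channel Kcnk1 rose from 1.03 to 93.2 CPM (1.73e-08). The 3 lower genes at d14 were Kcnj15, Kcnk5 and Slc4a4, the proximal sodium bicarbonate exit pathway, with log2 fold changes of -2.28, -1.52 and -1.84.

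Among 12 kinases, hormone receptors and other regulators of renal sodium transport, not all of which act on the pump itself, 5 were higher and 2 lower at 48 h. At d14 6 were higher and 2 lower (medians 0.42 and 0.67). The kinases Sik1, Oxsr1 and Pdpk1 were called at neither time against uninjured. The genes called higher at both times include the ubiquitin ligase gene Nedd4l (0.43 and 0.76) and Hsd11b2 (3.63 and 5.02), the enzyme that keeps glucocorticoids from the mineralocorticoid receptor. Stk39 (SPAK), the kinase that activates sodium chloride cotransporters, rose from 3.08 to 16.3 and 60.7 CPM (adjusted p = 1.28e-06 and 1.69e-08). The mineralocorticoid receptor Nr3c2, through which aldosterone raises pump abundance, rose from 6.06 to 34.0 CPM at d14 (1.82e-06) and was at 8.82 CPM at 48 h without passing (0.0522). The kinase Wnk1 rose from 122 to 657 CPM at d14 (5.84e-06). The aldosterone-induced kinase Sgk1 rose at 48 h (2.32, adjusted p = 0.0143), fell from 48 h to d14 (-1.99, adjusted p = 0.0228) and was not called at d14 against uninjured (0.32, adjusted p = 0.659). The 2 lower genes at both times were the glucocorticoid receptor Nr3c1 and the kinase Prkcz (-0.72 and -0.87 at 48 h, -0.99 and -1.50 at d14).

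Of 11 pump partners and anchors, 8 were tested, of which 5 were higher at 48 h and 4 at d14 and none lower at either time against uninjured (medians 0.52 and 0.38). Agrn, which encodes agrin, a basement membrane proteoglycan, rose from 125 to 182 and 393 CPM (adjusted p = 0.0112 and 2.60e-06). The caveolar protein Cav1 rose from 2.92 to 19.0 and 34.9 CPM (0.00164 and 1.32e-04). The spectrin chain Sptan1 rose at d14 from 199 to 405 CPM (8.83e-04).

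Of 7 transcription factors tied to renal transport genes, 3 were higher and 3 lower at each time (medians -0.19 and 0.27). Hnf4a, which maintains proximal tubule identity, fell from 1012 to 641 and 262 CPM (adjusted p = 0.00238 and 5.10e-07). Pcbd1, a transcriptional cofactor, fell by 1.09 and by 1.54 (1.49e-04 and 3.68e-06). The distal nephron factors Tfap2b and Grhl2 rose from 2.71 to 120 and from 0.527 to 26.3 CPM at d14 (2.49e-07 and 6.35e-07). Of 10 renal magnesium handling genes, which belong beside Fxyd2 through its human disease, 9 were tested. At 48 h 3 were higher and 1 lower, and at d14 7 were higher and 1 lower (medians 0.45 and 1.85). The paracellular channel claudins Cldn19 and Cldn16 of the thick ascending limb rose from 1.85 to 51.7 and from 0.194 to 13.4 CPM at d14, and the magnesium channel Trpm6 of the distal convoluted tubule from 1.77 to 53.9 CPM (adjusted p = 4.67e-08, 3.62e-06 and 2.85e-06).

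The genes most like each member across the 9 libraries, among 9574 tested genes with at least 10 CPM in their highest group, are given as a description. Likeness is Pearson's r of log2(CPM + 0.5), and all 9 points share the group structure and the library scaling. The nearest to Atp1b1 were Borcs6 (0.977), Nudt18 (0.976) and the dynein chain Dync1li2 (0.975). Atp1b2 was followed by the ephrin receptor Ephb4 (0.992), the transcription factor Nfix (0.991) and Zfp652 (0.989). Atp1b3 was nearest to the respiratory chain assembly factor Uqcc2 (0.973), to Cnih4 (0.955) and to Ostc (0.955), a subunit of the oligosaccharyl transferase complex. Fxyd2 was nearest to the adaptor Gab1 (0.978), Fam104a (0.969) and Ptpdc1 (0.959).

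Fxyd4 came closest to the stress-induced Nupr1 (0.995), the calcium-binding S100a6 (0.986) and AI506816 (0.983), which stepped up at 48 h and were at 10.3, 49.4 and 50.4 CPM at d14 against 7.94, 43.7 and 48.9 CPM at 48 h. The nearest to Fxyd5 were Nfam1 (0.980), a receptor of immune cells, the DNA synthesis enzyme Tk1 (0.980) and the leukocyte integrin chain Itgb2 (0.979). Itgb2 was at 2.98 CPM in uninjured cells, 33.0 CPM at 48 h and 4.66 CPM at d14. The sparse Fxyd3 reached 0.889 (Hltf), 0.883 (Rabif) and 0.845 (Mark4), and in counts this low such values carry no weight.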

How the data were processed

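The 9 mouse libraries were sequenced from polyadenylated RNA of the sorted cells. The deposited table holds expected counts per gene, already as whole numbers. RSEM 1.2.28, STAR 2.6.1, R 3.6.3, DESeq2 1.26.0 and bcl2fastq 2.20 are listed in the submitters' processing notes, without roles; the notes list both a mouse and a human build, and the identifiers are mouse. No source used here gives the annotation release or the strand setting. RSEM divides reads shared between genes, so values of similar copies are uncertain. The 92 spike-in rows held 0 counts and were left out.

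Groups were taken from the labels. Counts were fitted with edgeR 4.0.16 (R 4.3.3): filterByExpr (minimum count 10, minimum total 15; 15519 genes kept), TMM, robust quasi-likelihood fit of all 9 libraries, F-tests and Benjamini-Hochberg adjustment within a comparison. CPM use TMM-scaled sizes of the genes kept. The fit was tested on simulated data. Alternatives were DESeq2 1.42.0, limma 3.58.1 voom with sample weights, other scaling, no filter, a replicate block, 2-group fits and leaving out each library. Positions, lengths and coding bases come from GENCODE M21 (GRCm38), in which 54487 of 55385 identifiers occur with the same version.

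The members, 8 pathway lists and 15 marker lists were chosen with earlier results of these data known. Named genes are all members and pump subunits, the 3 genes of each pathway list with the smallest p at 1 CPM or more, members of counts of 5 or fewer, the leading markers and the 3 genes most like each member. Genes outside this rule, such as Sgk1, Nedd4l, Hsd11b2, Pcbd1, Nr3c1 and Prkcz, were named after their values were seen. Some genes of the pathway lists are not reported here, and the list counts leave them out. Correlations of deviations between same-numbered libraries were -0.127 to 0.019, so the numbers do not pair libraries. A library with no count allows up to 3 counts, or 0.0651 to 0.431 CPM.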

Additional observations from a re-analysis of the deposited data

Results flagged for a closer look

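For 2 members the change at 48 h and the change at d14, both against uninjured cells, differed by the direct test of d14 against 48 h (edgeR). Atp1b2 stood 2.80 higher on the log2 scale at d14 than at 48 h (adjusted p = 2.65e-04, higher in 3 of 3 libraries), and Fxyd5 stood at -3.14 (adjusted p = 0.00161, lower in 3 of 3 libraries). Among the further pump and FXYD genes the same test gave 2.94 for Fxyd6, 4.11 for Atp4a and 2.22 for Atp12a (adjusted p = 0.00325, 1.55e-04 and 0.0156). The test compares libraries that also differ in tamoxifen schedule and time since injury, which cannot be told apart.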

How the results depend on the processing

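Of 333 alternative values of member fold changes 297 kept direction and side of the threshold. Those lost were Fxyd2 at 48 h and Atp1b2 at 48 h in the 2-group fit.

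With the replicate block the members lower at 48 h went from 1 to 0 (Fxyd2, -0.46 ± 0.16, adjusted p = 0.0674), and no other count of members changed; the numbers share nothing known. Leaving out 1 library, the members lower at 48 h ranged from 0 to 1, members higher at d14 against 48 h from 1 to 2, and all genes lower at 48 h from 1147 to 1995 (1147 without uninjured replicate 1, 1208 without uninjured replicate 3, against 1818).

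Without TMM, members higher at d14 were 5 against uninjured and 3 against 48 h. Over all genes 7315 were then higher and 1417 lower against uninjured, and 6812 and 934 against 48 h. Signs turned for Atp1b3 (0.31) and Fxyd3 (0.49) against 48 h, Fxyd2 (0.36) against uninjured, and Pcbd1 (0.11) against 48 h. Members higher at d14 against 48 h were 2 with DESeq2, 2 with limma voom and 2 without 48 h replicate 2, and members lower were 2 with DESeq2.

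The other sign changes among members were in differences that were never called. For Fxyd3 at d14 against 48 h they gave 0.35 to 0.54 without d14 replicate 1, d14 replicate 2 (0.54) or 48 h replicate 1, and -2.28 at the lowest (without d14 replicate 3); against uninjured d14 ranged from -1.04 (without d14 replicate 3) to 6.61 (without uninjured replicate 2). Fxyd4 at d14 against 48 h was -0.05 with limma voom, -0.01 in the 2-group fit and without uninjured replicate 2, -0.11 without 48 h replicate 2 and -0.09 without d14 replicate 1, and at most 0.19 among fits without 1 library (48 h replicate 1) and 0.62 without TMM. Fxyd5 at d14 against uninjured was -0.21 with limma voom, -0.16 without uninjured replicate 3 and -0.25 without d14 replicate 2, and at most 0.45 among fits without 1 library (d14 replicate 3) and 0.67 without TMM. The cause was not tested for any of these. Among called pathway genes 123 of 2112 alternative values no longer passed, 1 turned sign and 1988 were the same.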
